A study of Mus musculus with 2 samples.

Results

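Notch signalling was described at postnatal day 3 in ovaries of C57BL mice through 10 genes. These were the receptors Notch1, Notch2 and Notch3, the ligands Jag1 and Jag2, and the target genes Hes1, Hey1, Hey2, Heyl and Nrarp. The members were taken by gene symbol, and all 10 were among the 21018 genes listed in both count tables. Single cells were sequenced with the 10x Genomics 3′ assay in 2 libraries, 1 for each treatment group. In both groups the mothers received melatonin (MLT) from E16.5, late in gestation, until the pups were taken at postnatal day 3. In the group DEHP_MLT DEHP, a plasticizer of the phthalate family, was given by oral gavage as well, and in the group MLT an equal volume of DMSO stood in for it. How many animals each library came from was not stated in the labels.

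The sample titles and the names of the attached tables conflict: the table of the sample titled MLT is named for DEHP_MLT, and the reverse holds for the other. The titles were followed, together with the group field, which names DEHP only for the sample titled DEHP_MLT. Libraries are therefore given as labelled MLT and labelled DEHP_MLT, and every direction between them would reverse if the table names were right. With 1 library in each group there is no replicate spread, cells are not replicates, and no test was made. Intervals are 95% and cover counting error only.

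Notch receptors are membrane proteins that are cleaved when a ligand on a neighbouring cell binds them. The freed intracellular part enters the nucleus, joins the DNA-binding protein RBPJ and switches on genes of the Hes and Hey families, which encode transcriptional repressors. In the mouse ovary, Jagged ligands on oocytes and Notch2 on the surrounding supporting cells are known for their part in breaking germ cell nests into single follicles. In blood vessels, Notch1 is known in the endothelium and Notch3 in the mural cells, that is pericytes and vascular smooth muscle.

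Cells were sorted in silico into 6 classes by marker genes, and each class means cells resembling that type. The classes took in 4109 of the 5199 cells labelled MLT and 3622 of the 4819 labelled DEHP_MLT. Vessel and muscle cells were kept in their class when they also passed the stroma gate, and smooth muscle cells when they also passed the pericyte gate. Germ cells (Dazl, Sycp3, Figla) numbered 236 and 739, granulosa cells (Fst, Hsd3b1, Inha, Aard) 672 and 395, and pericytes (Rgs5) 77 and 92, in that order of libraries. Smooth muscle cells (Myh11, Actg2) numbered 164 and 68, endothelial cells (Cdh5, Cldn5) 145 and 99, and stroma cells (Col1a1, Col1a2, Col3a1, Dcn) 2815 and 2229. A level is the number of UMIs (unique molecular identifiers, 1 per captured transcript) of a gene summed over the cells of a class, per 10000 UMIs of those cells. Values are given in the order labelled MLT, then labelled DEHP_MLT.

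Depth and the makeup of the classes differed between the libraries. The tables held 80657690 and 117355739 UMIs, with a median of 10833 and 13158 per barcode before filtering, and germ cells had a median of 13502 and 57113. Markers not used in the gates, 4 for each class, were all detected in their own class and summed highest there, from 9.30 in germ cells labelled DEHP_MLT to 88.8 in smooth muscle labelled MLT. Foxl2 and the other granulosa check markers also summed to 7.05 and 7.68 in stroma. The 3 erythroid markers, haemoglobin genes and Alas2, summed to between 1.34 and 48.1 in the 6 classes labelled MLT and between 21.1 and 70.7 in those labelled DEHP_MLT. The libraries shared 4 cell barcodes. The part of these differences in the results below was not tested, except where values with and without the cells concerned are given.

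**Figure D1:**
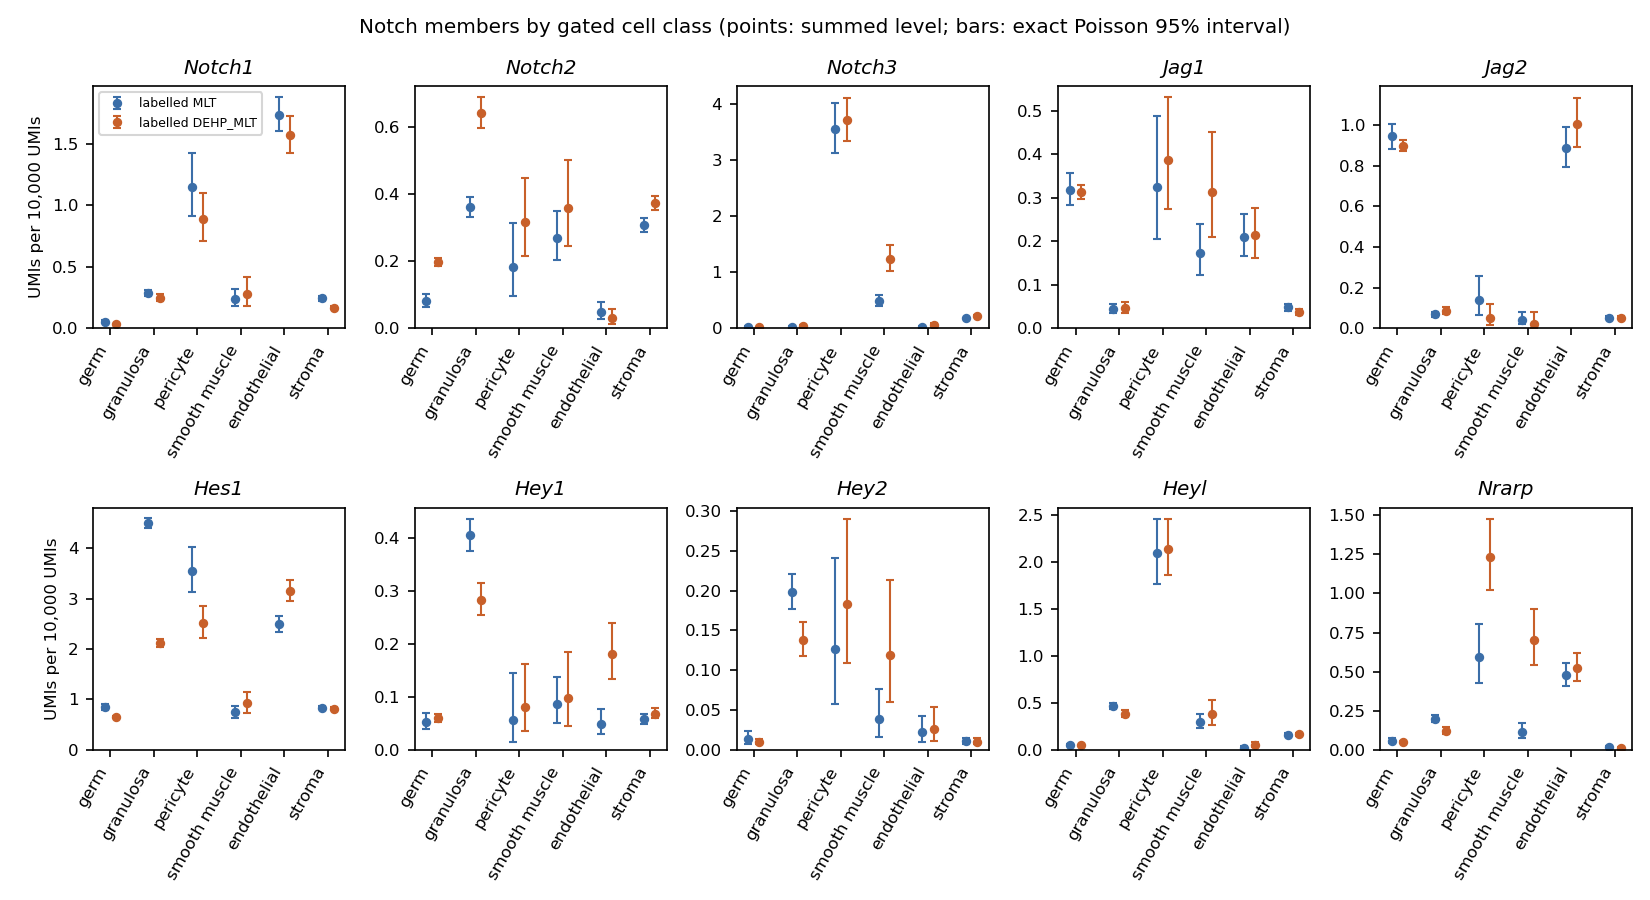
Level of each Notch member (UMIs per 10,000 UMIs, linear axes from 0, a scale for each gene) in the 6 gated classes of the libraries labelled MLT (blue) and DEHP_MLT (orange). Points are summed levels and bars exact Poisson 95% intervals; Notch3 and Heyl stand highest in pericytes in both libraries, and Hes1 in granulosa cells lies at 4.50 and 2.11.

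The 3 receptors had different cells at the top. Notch1, which in mice is needed for vessel formation, was highest in endothelial cells, at 1.73 per 10000 labelled MLT (634 UMIs, interval 1.60 to 1.87) and 1.57 labelled DEHP_MLT (418 UMIs, 1.42 to 1.72). Pericytes followed at 1.15 and 0.888, with intervals apart from the endothelial ones. Granulosa, smooth muscle and stroma cells lay between 0.169 and 0.285 in either library, and germ cells were lowest at 0.0535 and 0.0318. The endothelial level was 32.4 and 49.3 times that of germ cells. Neighbouring granulosa, stroma and smooth muscle levels had overlapping intervals in the library labelled MLT.

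Notch2 had the flattest profile of the receptors outside endothelium, with granulosa cells first in both libraries. Its granulosa level was 0.362 (604 UMIs, 0.333 to 0.392) and 0.642 (785 UMIs, 0.598 to 0.689). Stroma followed at 0.308 and 0.373, smooth muscle at 0.270 and 0.358, and pericytes at 0.184 and 0.316, and these 3 neighbours overlapped in both libraries. Endothelial cells, which led for Notch1, held the least Notch2, at 0.0492 (18 UMIs) and 0.0300 (8 UMIs).

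Notch3, the receptor of mural cells, was the most unevenly spread member. Pericytes held 3.55 (251 UMIs, 3.12 to 4.02) and 3.71 (363 UMIs, 3.33 to 4.11), which was 7.35 and 3.0 times the next class, smooth muscle. Stroma lay at 0.175 and 0.213, and germ, granulosa and endothelial cells between 0.0198 and 0.0525. The pericyte level was 162 and 187 times the lowest class. At least 1 Notch3 UMI was found in 85.7% and 92.4% of pericytes, against 8.47% and 11.4% of germ cells, which had more UMIs per cell (medians 8964 and 9623.5 in pericytes). After each cell was thinned to 2000 UMIs, which left out no cell, these shares were 53.2% and 57.6% in pericytes and 0.424% and 0.812% in germ cells.

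The ligands shared germ and endothelial cells as sites and differed in mural cells. Jag2 reached 0.945 (901 UMIs, 0.884 to 1.01) and 0.900 (4135 UMIs, 0.873 to 0.928) in germ cells. In endothelial cells it reached 0.889 (325 UMIs, 0.795 to 0.991) and 1.01 (269 UMIs, 0.892 to 1.14), so that the intervals of the pair overlapped and their order changed between the libraries. The remaining 4 classes lay between 0.0217 and 0.141, and the next class stood 6.29 and 10.4 times below the second of the pair. As a measure of free RNA, cells with red blood cell markers held Jag2 at 0.10 (4 UMIs in 33 cells) and 0.0689 (45 UMIs in 587 cells).

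Jag1 was at 0.319 (304 UMIs, 0.284 to 0.357) and 0.314 (1441 UMIs, 0.298 to 0.330) in germ cells. Over the whole class this was the closest match between the libraries of any member in germ cells, though parts of the class differed. Pericytes were nominally first at 0.325 (23 UMIs) and 0.388 (38 UMIs), but their intervals overlapped those of germ cells. Smooth muscle lay at 0.174 and 0.315 and endothelial cells at 0.211 and 0.214. Granulosa and stroma cells were lowest, between 0.0373 and 0.0479. Summed over both ligands, germ cells held 1.26 and 1.21 and granulosa cells 0.113 and 0.133 per 10000, while the 3 receptors together gave 0.157 and 0.249 in germ cells and 0.678 and 0.935 in granulosa cells. In both libraries germ cells thus had more of the ligands than granulosa cells had, and granulosa cells more of the receptors than germ cells.

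Among the targets, Hes1, a repressor of differentiation genes, had the highest level in each of the 6 classes. In the library labelled DEHP_MLT its interval overlapped that of Heyl in pericytes and that of Nrarp in smooth muscle. Hes1 was most abundant in granulosa cells, pericytes and endothelial cells. In the library labelled MLT it was highest in granulosa cells at 4.50 (7519 UMIs, 4.40 to 4.61), then pericytes at 3.55 (251 UMIs, 3.12 to 4.02) and endothelial cells at 2.49 (911 UMIs, 2.33 to 2.66). In the library labelled DEHP_MLT the order of these 3 was turned, with endothelial cells at 3.16 (842 UMIs, 2.95 to 3.38), pericytes at 2.52 (247 UMIs, 2.22 to 2.86) and granulosa cells at 2.11 (2582 UMIs, 2.03 to 2.20). Neighbours among these 3 had intervals apart in each library. Germ, stroma and smooth muscle cells lay between 0.649 and 0.922. Cells with red blood cell markers, the measure of free RNA, held Hes1 at 0.975 (39 UMIs in 33 cells, 0.693 to 1.33) and 0.133 (87 UMIs in 587 cells, 0.107 to 0.164). In the library labelled MLT the levels of germ (0.852), stroma (0.837) and smooth muscle cells (0.748) were below that value but within its interval. Its 39 UMIs came from 8 of the 33 cells, and 3.03% of them had a Hes1 UMI after thinning. The thinned shares were 21.6% in germ, 14.0% in stroma and 9.76% in smooth muscle cells. Cells with immune markers in that library held Hes1 at 0.334 (45 UMIs in 128 cells, 0.244 to 0.447). Whether Hes1 in germ, stroma and smooth muscle cells is background was not tested.

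Heyl, a Hey family repressor known in vascular smooth muscle, went with Notch3. Pericytes held 2.09 (148 UMIs, 1.77 to 2.46) and 2.14 (210 UMIs, 1.86 to 2.45), which was 4.50 and 5.60 times the level of granulosa cells at 0.465 and 0.383. Smooth muscle had 0.299 and 0.380 and stroma 0.162 and 0.166. Endothelial cells were at 0.0219 (8 UMIs) and 0.0487 (13 UMIs).

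Hey1, known in endothelium for its part in artery formation, was here highest in granulosa cells, at 0.404 (675 UMIs, 0.374 to 0.436) and 0.283 (346 UMIs, 0.254 to 0.315). The other 5 classes lay between 0.0492 and 0.0869 in the library labelled MLT, with all neighbours overlapping. In the library labelled DEHP_MLT endothelial cells stood second at 0.180 (48 UMIs, 0.133 to 0.239), against 0.0492 (18 UMIs, 0.0292 to 0.0778) in the other library.

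Hey2, whose product is a repressor known in arteries and heart, was shared by granulosa cells and mural cells. Granulosa cells held 0.198 (331 UMIs, 0.177 to 0.221) and 0.138 (169 UMIs, 0.118 to 0.161), and pericytes 0.127 (9 UMIs, 0.0582 to 0.242) and 0.184 (18 UMIs, 0.109 to 0.290). These intervals overlapped in each library, so the change of leading class is within counting error. Stroma, with 33 and 31 UMIs in the largest class, was at 0.0110 and 0.0101. Promoter sequences from RefSeq (GRCm38.p6) were found for 7 of the 10 members, and the 250 bases before the gene start were searched on both strands for the core of the RBPJ site, GTGGGAA. The target genes Hes1, Hey1 and Heyl had no such sequence and were not searched. Hey2 was the only one of the 7 with a match, which 5.42% of 32851 promoters hold. It lies on the reverse strand, 207 bases before the start, and the stretch from 250 to 151 bases before the start (chr10:30842934-30843033, minus strand) is shown because of it, with the match, read as TTCCCAC, in capitals.
Hey2: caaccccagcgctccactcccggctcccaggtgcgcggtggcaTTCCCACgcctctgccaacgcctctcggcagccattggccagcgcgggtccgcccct
A match describes these letters and is not a measured binding site.

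Nrarp, which is switched on by Notch and in turn promotes the loss of the intracellular receptor part, was highest in pericytes in both libraries. They held 0.594 (42 UMIs, 0.428 to 0.803) and 1.24 (121 UMIs, 1.02 to 1.48), and endothelial cells 0.479 (175 UMIs, 0.410 to 0.555) and 0.525 (140 UMIs, 0.442 to 0.619). This pair overlapped in the library labelled MLT and stood apart in the other. Smooth muscle was at 0.116 (24 UMIs) and 0.705 (65 UMIs), below endothelial cells in the first library and nominally above them in the second, where the intervals overlapped. Stroma had the least, at 0.0183 and 0.0124.

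The highest class was the same in both libraries for 7 of the 10 members, and the exceptions were Jag2, Hes1 and Hey2. Over 11264 genes the same held for 75.3%, so the members' share is close to the background. Notch3 and Heyl were the members at least 2-fold above the next class in both libraries, each in pericytes, and 1.81% of genes had pericytes in that place.

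Between the libraries, 39 of the 60 pairs of a member and a class reached 0.1 per 10000 in either library. A pair was counted as higher or lower when its levels differed by at least 1.5-fold, and the log2 ratio is that of labelled DEHP_MLT over labelled MLT. By this rule 9 pairs were higher in the library labelled DEHP_MLT and 3 were lower. Hes1, lower in granulosa cells, Notch2, higher in granulosa cells, Hey1, higher in endothelial cells, and Nrarp, higher in pericytes, each passed the rule under all 12 alternatives to the gates, cells, totals and pseudocount.

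**Figure D2:**
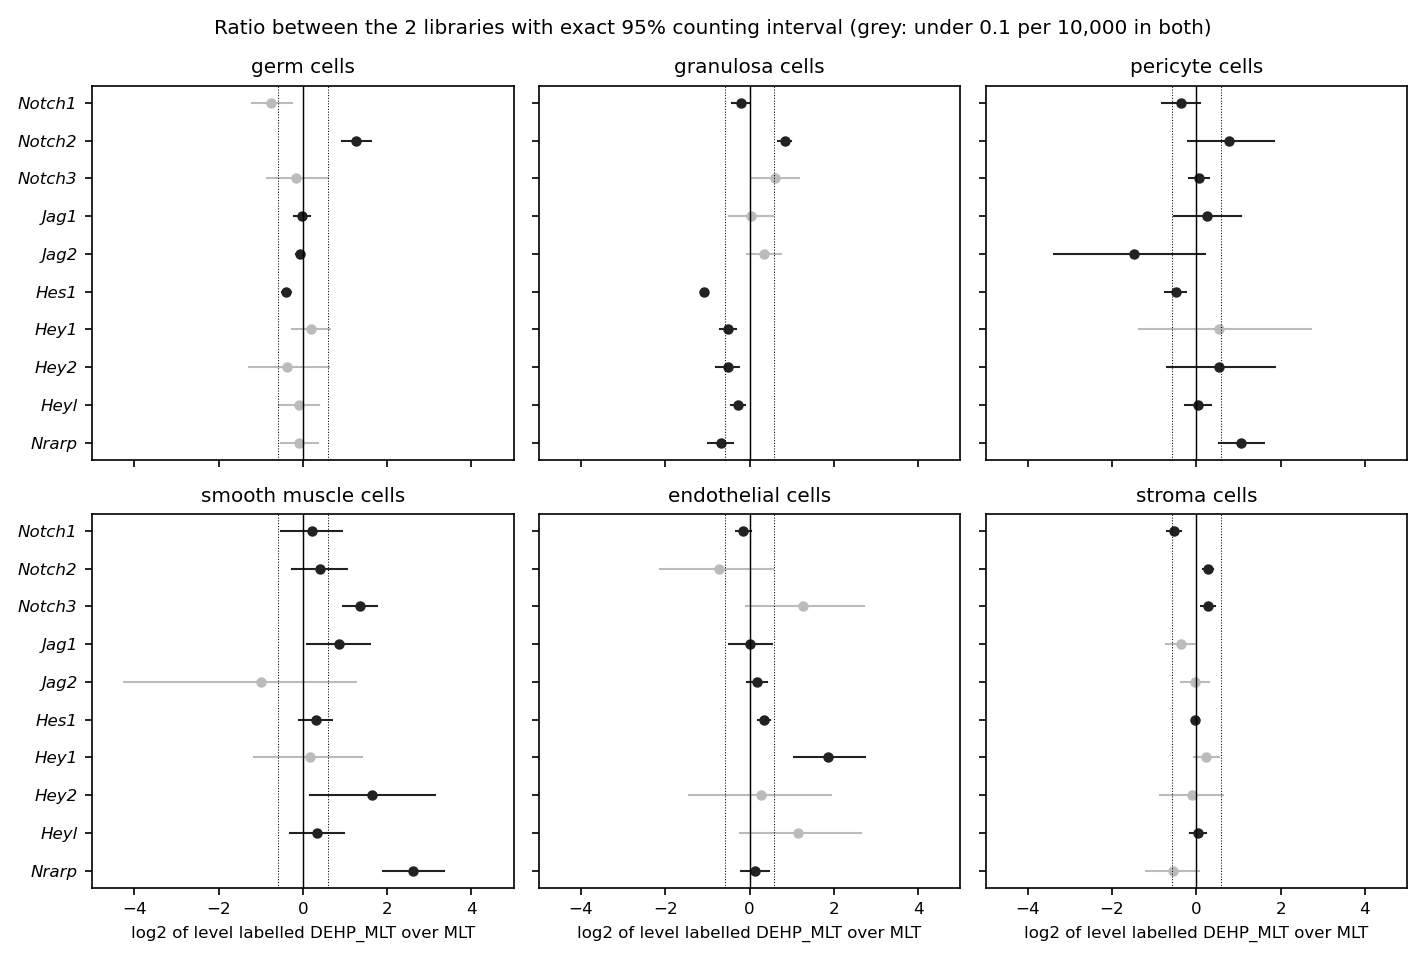
Log2 ratio of the level labelled DEHP_MLT over that labelled MLT for the 10 members in each class, with exact 95% counting intervals; dotted lines mark 1.5-fold and grey points stayed under 0.1 per 10,000 in both libraries. Hes1 in granulosa cells lies at -1.09 and Nrarp at 1.06 in pericytes and 2.61 in smooth muscle, and the few counts of smooth muscle and pericytes give wide intervals.

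In granulosa cells 2 members were lower and 1 was higher, while 8.61% of 9385 genes were lower and 1.89% higher. Hes1 was lower by a log2 ratio of -1.09 (interval -1.16 to -1.03) and Nrarp by -0.69 (-0.98 to -0.40). The other targets there were Hey1 at -0.51, Hey2 at -0.52 and Heyl at -0.28, all on the same side but under 1.5-fold. Notch2 was higher by 0.83 (0.67 to 0.98) and Notch1 stood at -0.22. The median of the 7 members at the level minimum was -0.51, against -0.14 over all genes. The Nrarp ratio was -0.42 with 0.1 per 10000 added to both levels and also under 1.5-fold in clustered cells.

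The Hes1 difference was seen in every group of supporting and epithelial cells looked at. The share of granulosa cells with a Hes1 UMI was 86.8% and 88.4% with all UMIs and 47.9% and 30.9% after thinning, with median depths of 15926 and 22255 UMIs. In the lowest classes the thinned share was 9.76% (smooth muscle labelled MLT, median 11666) and 13.0% (germ cells labelled DEHP_MLT, median 57113). Granulosa cells with at least 3 UMIs of MHC class II genes made up 46.0% of those labelled MLT and 1.77% of those labelled DEHP_MLT. Among cells under 3 such UMIs, Hes1 stood at 4.76 (363 cells) and 2.13 (388 cells), a log2 ratio of -1.16. These cells had median depths of 13893 and 21133.5 UMIs. The 309 cells labelled MLT with at least 3 had 27902 and held Hes1 at 4.38. Surface epithelium markers summed to 0.977 and 2.32 in granulosa cells, and epithelial pregranulosa markers to 1.92 and 3.57. With both lists together under 5 per 10000 the ratio was -1.11.

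Outside the 6 classes, cells with the epithelial pregranulosa markers Lgr5 and Gng13 held Hes1 at 4.17 (938 UMIs in 98 cells, 3.91 to 4.45) and 1.82 (845 UMIs in 129 cells, 1.70 to 1.94). Cells with the surface epithelium markers Upk3b, Krt19 and Lrrn4 held 2.96 (2335 UMIs in 234 cells, 2.84 to 3.08) and 1.25 (854 UMIs in 219 cells, 1.16 to 1.33). Stroma, the largest class, held 0.837 and 0.818, a log2 ratio of -0.03 (-0.11 to 0.05). Notch2 in the same groups was 0.516 and 0.696 with epithelial pregranulosa markers and 0.222 and 0.499 with surface epithelium markers. These marker groups were set after the values of the data had been seen.

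**Figure D3:**
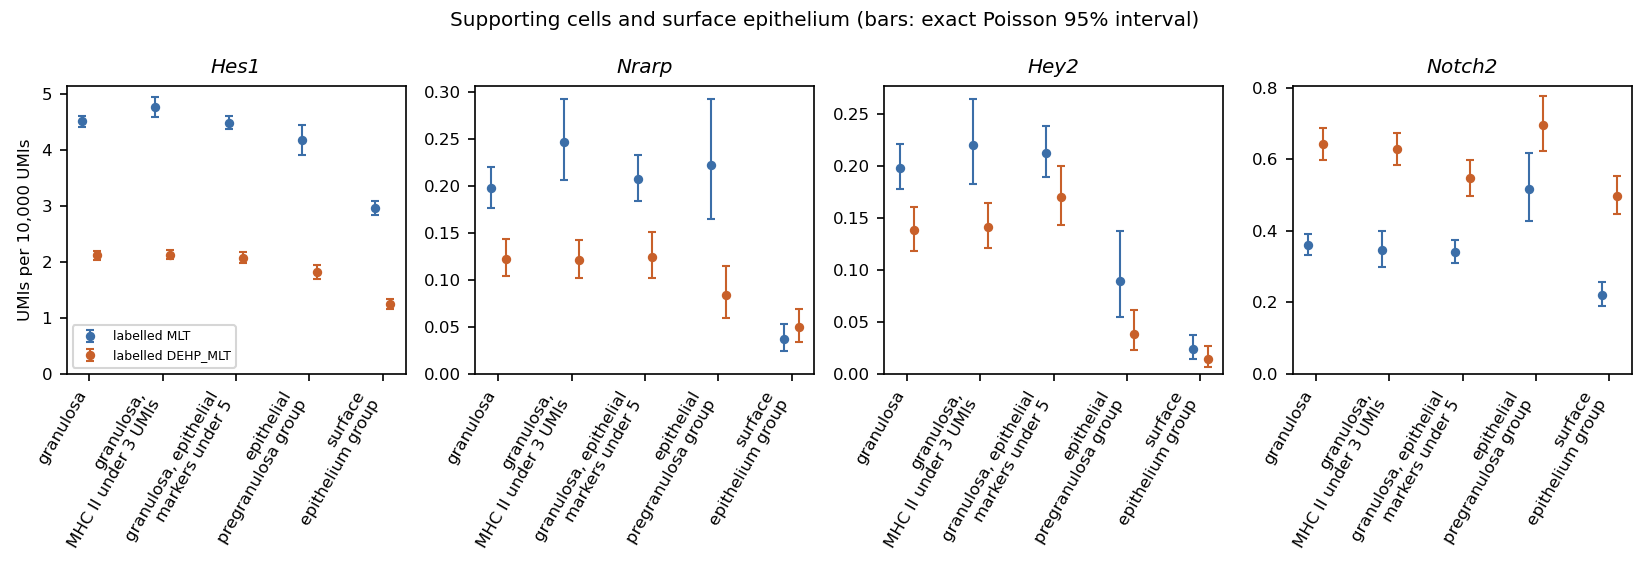
Levels of Hes1, Nrarp, Hey2 and Notch2 (UMIs per 10,000 UMIs, axes from 0) in granulosa cells, in the granulosa cells with few MHC class II UMIs or few epithelial markers, and in cells with epithelial pregranulosa or surface epithelium markers. Bars are exact Poisson 95% intervals; Hes1 lies lower in the library labelled DEHP_MLT in all 5 groups, down to 1.25 in the surface epithelium group, and Notch2 lies higher in all 5.

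In germ cells 1 member, Notch2, was higher and none was lower, against 2.13% and 4.84% of 8775 genes. Its level was 0.0818 (78 UMIs) and 0.197 (907 UMIs), a log2 ratio of 1.27 (0.94 to 1.62). Its level was higher in the barcodes that also held granulosa transcripts. In germ cells under 1 per 10000 of the granulosa gate markers (162 and 509 cells) Notch2 was at 0.0520 and 0.0714, a log2 ratio of 0.46 (-0.02 to 0.97). In those with 1 or more (74 and 230 cells) it was at 0.223 and 0.609, a log2 ratio of 1.45 (0.97 to 1.97), and Foxl2, a granulosa transcription factor, was at 0.936 and 0.997.

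Over all germ cells the ligands were close between the libraries. Jag2 had a log2 ratio of -0.07 (-0.17 to 0.04) and Jag1 of -0.02 (-0.20 to 0.16), and Hes1 stood at -0.39. In germ cells with few granulosa markers Jag2 was at 1.03 and 0.992. Jag1 was at 0.348 and 0.287 in these, a log2 ratio of -0.28 (-0.47 to -0.08). In those with more granulosa markers Jag2 was at 0.519 and 0.600. There Jag1 was at 0.181 (30 UMIs) and 0.401 (432 UMIs), a log2 ratio of 1.15 (0.61 to 1.73), in cells whose median depths were 8212.5 and 39827 UMIs. The match of Jag1 over all germ cells thus joined differences of opposite direction in these 2 parts. Depth differed between the libraries in both parts, with medians of 26200.5 and 73908 UMIs in the cells with few granulosa markers. The part of depth in this split was not tested. Hes1 was lower in both parts, at -0.30 (-0.44 to -0.16) with few granulosa markers and -0.80 (-0.99 to -0.60) with more. Labelled MLT, its level was 0.684 with few and 1.65 with more. Over the 4 members at the level minimum in germ cells the median was -0.05, against -0.09 over all genes.

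In pericytes 2 members were higher and 1 was lower, against 9.98% and 22.8% of 9626 genes. Nrarp was higher by a log2 ratio of 1.06 (0.54 to 1.60). The markers of the class moved as well: the 4 smooth muscle check markers summed to 10.5 and 17.5 in pericytes, the 4 pericyte check markers to 25.2 and 19.4, Rgs5 was at 18.4 and 14.4, and the erythroid markers summed to 1.37 and 70.7. Their part in the Nrarp difference was not tested. Notch2 was higher by 0.78, from 13 and 31 UMIs, and Jag2 lower by -1.47, from 10 and 5 UMIs, and both intervals reached past 0. Notch3 at 0.06 (-0.17 to 0.30) and Heyl at 0.03 (-0.28 to 0.35) were near 0, and Hes1 was at -0.49 (-0.75 to -0.23). The median of the 9 members at the level minimum was 0.06, against -0.14 over all genes.

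In smooth muscle 4 members were higher and none was lower, against 9.13% and 15.6% of 9797 genes. These were Nrarp at 2.61, Hey2 at 1.63 (8 and 11 UMIs), Notch3 at 1.36 and Jag1 at 0.86. The median of the 8 members at the level minimum was 0.63, against -0.07 over all genes. The class mixed cells with and without Rgs5, the pericyte marker, in unequal parts. Cells that also passed the Rgs5 gate were 14 of 164 and 15 of 68, and cells with no Rgs5 UMI were 146 and 46. The remaining 4 and 7 cells had Rgs5 UMIs below the gate. Without Rgs5, Notch3 was at 0.233 (43 UMIs) and 0.0928 (6 UMIs), a log2 ratio of -1.33 (-2.85 to -0.09), so the direction was the opposite of that in the whole class. With Rgs5, it was at 3.21 (56 UMIs) and 5.44 (83 UMIs), a log2 ratio of 0.76 (0.25 to 1.28). The 4 and 7 cells below the gate held Notch3 at 0.194 (1 UMI) and 2.04 (25 UMIs), and 0 and 8 UMIs of Nrarp and 0 and 14 of Hes1.

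Heyl, Jag1, Hes1, Hey2, Nrarp and Notch1 were also higher in the cells with Rgs5 in both libraries. Heyl was at 0.157 and 0.0618 without Rgs5 and at 1.78 and 1.64 with it, and Jag1 at 0.0813 and 0.0618 without and 1.15 and 1.38 with. Hes1 was at 0.628 and 0.387 without and 2.24 and 3.02 with, and Notch1 at 0.195 and 0.170 without and 0.746 and 0.852 with. Hey2 had 3 UMIs and 1 UMI without Rgs5, a log2 ratio of -0.07, and 5 and 10 with it, a ratio of 1.19 (-0.49 to 3.09), so that most of its UMIs came from the cells with Rgs5. Notch2 and Hey1 lay the other way. Notch2 was at 0.282 and 0.402 without and 0.172 and 0.262 with, from 3 and 4 UMIs with Rgs5, and Hey1 at 0.0921 and 0.108 without and 0.0574 and 0.0656 with, from 1 UMI each. Jag2 had 9 UMIs and 1 UMI without Rgs5 and 0 and 1 with it. Nrarp was found mostly in the cells with Rgs5, at 1.09 (19 UMIs) and 3.67 (56 UMIs), a log2 ratio of 1.75 (0.98 to 2.59), against 5 UMIs and 1 UMI in those without. The higher Nrarp was thus also present among smooth muscle cells with Rgs5, in 14 and 15 cells.

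**Figure D4:**
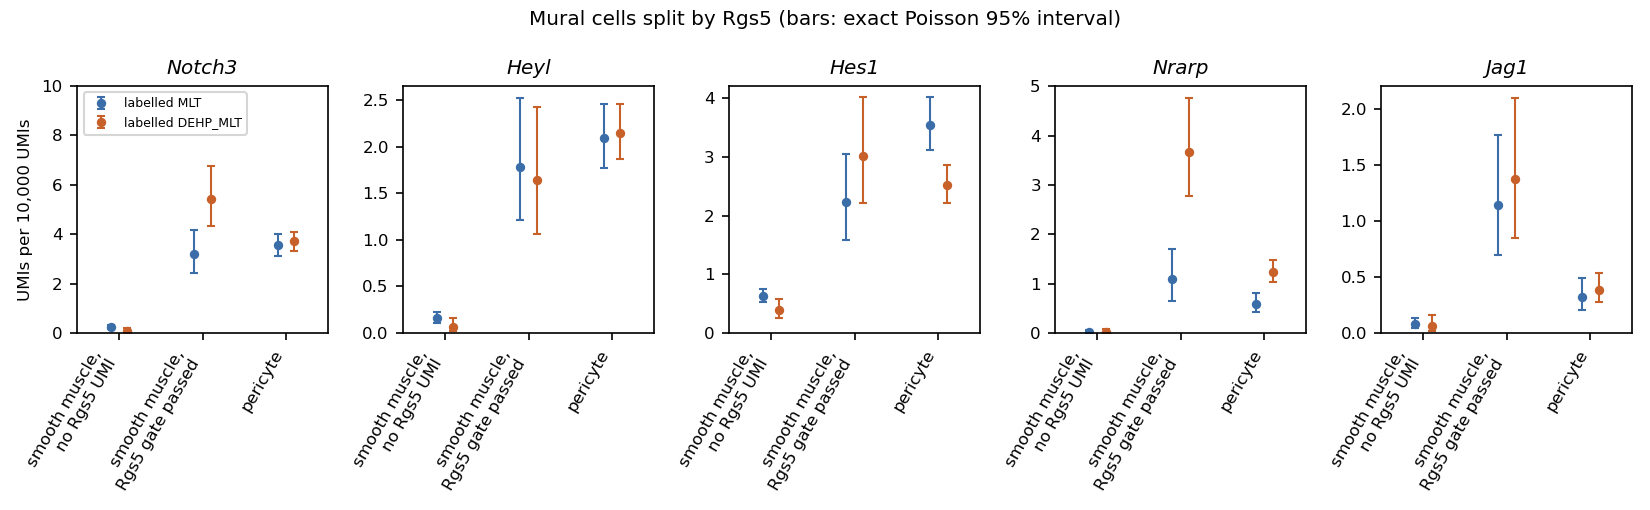
Levels of Notch3, Heyl, Hes1, Nrarp and Jag1 (UMIs per 10,000 UMIs, axes from 0) in smooth muscle cells without an Rgs5 UMI, in those that also passed the Rgs5 gate, and in pericytes; cells with Rgs5 UMIs below the gate are not shown. Bars are exact Poisson 95% intervals; all 5 genes lie low without Rgs5, and Nrarp with Rgs5 stands at 1.09 labelled MLT and 3.67 labelled DEHP_MLT.

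In endothelial cells 1 member was higher and none was lower, against 3.57% and 13.7% of 9004 genes. Hey1 was higher by a log2 ratio of 1.87 (1.06 to 2.74). Hes1 was at 0.34 (0.20 to 0.48), Jag2 at 0.18, Nrarp at 0.13, Jag1 at 0.02 and Notch1 at -0.15. Of the endothelial cells labelled MLT 49.7% had at least 3 MHC class II UMIs, and of those labelled DEHP_MLT none of 99, which allows a share of up to 3.03% (3 counts of the total). In the 73 and 99 cells under 3, Hes1 was at 0.86 (0.64 to 1.08), past 1.5-fold, and Hey1 at 2.83, from 3 and 48 UMIs. The cut is on UMIs and so depends on depth. These cells had median depths of 12857 and 19968 UMIs, against 33482 in the 72 cells labelled MLT that were left out. Hes1 levels were 1.74 and 3.16 in the cells under 3 and 2.85 in those left out. The part of depth in these ratios was not tested. The median of the 6 members at the level minimum was 0.16 in the whole class, against -0.12 over all genes.

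In stroma none of the members differed by 1.5-fold, against 1.39% of 9343 genes higher and 10.1% lower. Notch1 was at -0.52 (-0.69 to -0.36), Notch3 and Notch2 both at 0.28, Heyl at 0.04 and Hes1 at -0.03. The median of these 5 was 0.04, against -0.14 over all genes.

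The rest of the pathway was read from 52 further genes in 6 lists, of which 51 were in both tables. Between the libraries none of the 31 genes at the level minimum in germ cells and none of the 35 in granulosa cells passed 1.5-fold. Pericytes had 2 higher and 8 lower of 36, smooth muscle 3 and 5 of 38, endothelial cells 2 and 1 of 37 and stroma 1 and 1 of 38. Set beside the shares of all genes given above, these counts are close to or under the background.

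Among receptors and ligands, Notch4 and Dll4, a receptor and a ligand of endothelium, were highest in endothelial cells. Dll4 was there at 0.512 and 0.517, 18.1 and 47.7 times the next class, and Notch4 at 0.429 and 0.562. Dlk1, a membrane protein related to the Notch ligands but without the domain that binds the receptor, had the most UMIs of the list and was the only one past 1.5-fold. It was higher in 4 classes, in stroma at 4.83 and 8.32 (log2 ratio 0.78), in smooth muscle at 0.82, in endothelial cells at 1.19 and in pericytes at 1.55. Dll3 and Dner peaked in germ cells, at 0.132 and 0.102 and at 0.153 and 0.155, and Dll1 and Dlk2 were under 0.1 in all classes.

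Of the genes that process or glycosylate the receptor, Psenen, a subunit of the gamma-secretase that frees the intracellular part, was highest in germ cells at 5.32 and 5.10. Mfng, a Fringe glycosyltransferase that alters which ligands a receptor answers to, was at 1.29 and 1.61 in endothelial cells, 31.4 and 35.8 times the next class. Rfng, another Fringe enzyme, was higher in smooth muscle at 0.99 (26 and 23 UMIs) and in endothelial cells at 0.62 (32 and 36 UMIs). Adam17, which sheds the outer part, was lower in pericytes at -0.73 (18 and 15 UMIs). In smooth muscle Aph1b was lower at -0.80.

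In the nuclear complex, Rbpj was lower in stroma (1954 and 1177 UMIs, log2 ratio -0.75, interval -0.86 to -0.65), smooth muscle (-0.68) and pericytes (-1.02). In granulosa and endothelial cells it was under 1.5-fold. Maml1, a co-activator of RBPJ, was lower in pericytes at -2.61 (22 and 5 UMIs) and in smooth muscle at -2.20 (31 and 3 UMIs). Ncor1, a co-repressor, had the most UMIs of the list and was at 3.24 and 2.68 in granulosa cells.

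Among genes of ligand uptake and receptor turnover, Dtx1, a Notch-binding ubiquitin ligase, was 9.29 and 5.38 times higher in granulosa cells than in the next class, at 0.438 and 0.408. Dtx2 and Fbxw7, which marks the intracellular part for breakdown, led in germ cells at 1.18 and 1.30 and at 1.36 and 1.12. Mib1, needed for ligand activity, was lower in pericytes at -1.0 and Itch at -0.64. Of the further Hes genes, Hes6 was highest in germ cells at 0.501 and 0.515, and Hes3, Hes5 and Hes7 stayed under 0.1 in all classes.

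**Figure D5:**
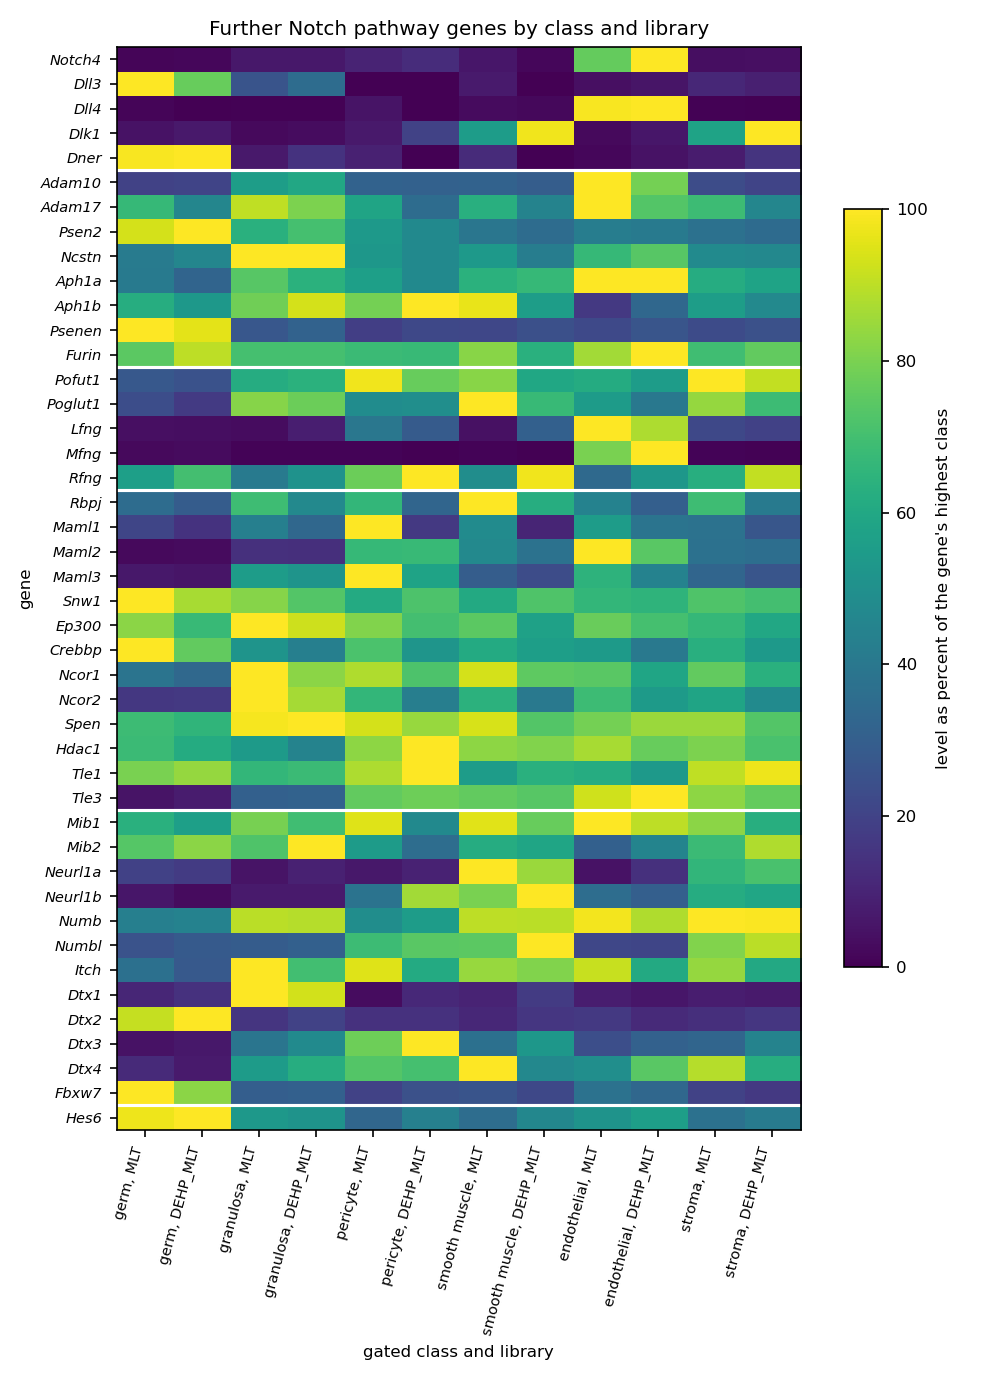
Further Notch pathway genes with at least 0.1 per 10,000 in any class (some not shown), each as a percent of its own highest value over the 6 classes and 2 libraries (rows are genes, white lines part the lists, columns are class and library). Dll4, Mfng and Notch4 are brightest in endothelial cells, Dtx1 in granulosa cells, and Psenen, Dtx2 and Fbxw7 in germ cells.

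Profiles over the 6 classes and 2 libraries were compared by Pearson r of log levels over 12 points, which share libraries and so give a description only. Heyl went with Notch3 (r = 0.82), Hey2 with Heyl (0.80), Hes1 with Notch1 (0.74) and Nrarp with Notch1 (0.72), while Jag2 and Notch2 ran opposite (-0.83). Not every target had a receptor of like profile. Hey1 stood at 0.29 with Notch2, 0.10 with Notch1 and -0.24 with Notch3, and Hes1 at -0.20 with Notch2. Of 6222 genes searched, the most alike to Notch3 were Tppp3 (0.99), Gpc6 (0.99) and Npr3 (0.98), and to Heyl Atp1b2 (0.98), Sh3kbp1 (0.97) and 1500009L16Rik (0.97). Notch1 was matched by Ets1, an endothelial transcription factor (0.98), Pitpnc1 (0.98) and Pon2 (0.98), and Notch2 by Timm22 (0.95), Pik3r2 (0.94) and Aldh2 (0.93). The closest to Jag2 were Ptpn18 (0.97), Ccdc88c (0.97) and Wwc2 (0.95), and to Jag1 Gja4, a connexin (0.94), Cobll1 (0.93) and Fam107b (0.90). Hes1 was nearest to Ptpn1 (0.94), Slc38a10 (0.93) and Wsb2 (0.91), and Hey1 to Ucp2 (0.91) and Hpcal1 (0.90). Hey2 was nearest to Ano1 (0.96), Gsta3 (0.94) and Cdh2 (0.92), and Nrarp to Bcam (0.93), Apold1 (0.92) and Nfkbiz (0.91).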

How the data were processed

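Per the submitters' processing notes, Cell Ranger, Seurat 4.2.0 and the genome build mm9 were used. The deposited values are whole-number UMI counts of genes by barcodes, unnormalized, in a table for each library. Kept were barcodes showing 500 genes or more and a mitochondrial share of up to 20% (5199 of 5277 and 4819 of 4819). A gate was a minimum of summed markers, at 5 per 10000 UMIs for germ and granulosa, 3 for pericyte, smooth muscle and endothelial and 20 for stroma cells, with 3 or more marker UMIs. These minimums were set after the data were seen. Cells past 2 gates were left out, except that stroma markers excluded no vessel or muscle cell and smooth muscle took precedence over Rgs5. The remaining cells were grouped by Alas2 (3 per 10000), immune (5), surface epithelium (10) or epithelial pregranulosa markers (5). No doublet caller was run. Barcodes past both the germ and the granulosa gate stayed out of the classes, and germ cells with granulosa markers below the gate stayed in.

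Levels carry exact Poisson intervals, shares exact Clopper-Pearson intervals and ratios exact conditional binomial intervals, all 95% and for counting error only. The share of 0 given for MHC class II in endothelial cells carries the limit of 3 counts of the total, which is not one of these intervals. All 10 members are named in every class. Of the 52 further pathway genes, the most abundant and the extremes of the library ratio in each list were named, and for each member the 3 genes of highest Pearson r of log2(level + 0.01) among genes reaching 0.5 per 10000. Pathway genes named for their leading class were chosen after their values were seen. Some genes that this rule names are not reported here. The members and lists were chosen with earlier results of these data known. The ratio calculation was tested on simulated counts. Sequences are from RefSeq (GRCm38.p6), which is not the build of the counts. Python 3.11.15, numpy 2.4.6, scipy 1.17.1, pandas 2.3.3, scanpy 1.11.5, anndata 0.12.19, igraph 0.11.9 and matplotlib 3.10.9 were used.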

Additional observations from a re-analysis of the deposited data

Results flagged for a closer look

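Nrarp, the feedback inhibitor of Notch, moved in opposite directions in different classes. It was higher in the library labelled DEHP_MLT in pericytes, at a log2 ratio of 1.06, and lower in granulosa cells, at -0.69, so that the ratios lay 1.74 apart on the log2 scale. Smooth muscle cells, at 2.61, lay 3.29 from granulosa cells. With 1 library in each group neither difference was tested. Of the smooth muscle value, the part with Rgs5 stood at 1.75. The part with no Rgs5 UMI held 5 UMIs and 1 UMI, a log2 ratio of -0.81 (-6.37 to 2.35). In smooth muscle the ratio turned to -0.37 with the restriction on markers of other gates. The granulosa value stayed past 1.5-fold under 10 of 12 alternatives, and the pericyte value under all 12.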

How the results depend on the processing

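Of the 12 pairs past 1.5-fold, Notch2 and Hes1 in granulosa cells, Hey1 in endothelial cells and Nrarp in pericytes stayed past it under all 12 alternatives to the gates, cells, totals and pseudocount, at 0.59 to 0.88, -1.22 to -0.96, 0.91 to 2.83 and 0.87 to 1.28, and Hey2 in smooth muscle under the 11 that gave a value (0.66 to 2.52), from few UMIs, most of them in cells past the Rgs5 gate. In smooth muscle the log2 ratio of Notch3 turned to -1.01 and that of Jag1 to -1.27 when Leiden clusters (2000 variable genes, 30 components, 15 neighbours, resolution 0.5) replaced the gates, which left 18 smooth muscle cells labelled DEHP_MLT. These clusters often held cells mostly of 1 library. With cells restricted to under 1 per 10000 of the markers of each other gate outside stroma, an alternative chosen after seeing the data, Notch3 was at -1.64, Jag1 at -1.25 and Nrarp at -0.37 in smooth muscle, and Notch2 in germ cells at 0.49.

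The 3 lower pairs became 5 with clusters, 8 with equal weight per cell, 9 with the restriction on other markers and 1 with a level minimum of 0.5. The 9 higher pairs became 5 with the restriction on other markers, so that lower pairs outnumbered higher ones there. They became 4 at a level minimum of 0.5, where the members with the same highest class went from 7 to 4 since fewer reached the minimum. A fold of 2 left 6 higher and 2 lower. For the other changes the cause was not tested. The share of all genes was not taken under these alternatives, so these counts of pairs have no background beside them. Over single pairs, 410 log2 ratios moved by less than their counting error, 52 by more, and 5 reversed. Shares of cells with a UMI moved with thinning in 116 of 120 cases. Pericyte and smooth muscle values rest on few UMIs, which limits their precision. No paired analysis was possible because each group has 1 library.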

Other observations

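Barcodes past both the germ and the granulosa gate, 49 labelled MLT and 44 labelled DEHP_MLT, held ligand and receptor transcripts as a group. A Notch2 UMI was found in 12 and 38 of them and a Jag2 UMI in 10 and 39. Barcodes with UMIs of both were not counted. Notch2 was at 0.360 (18 UMIs) and 0.932 (184 UMIs), Jag2 at 0.220 (11 UMIs) and 0.511 (101 UMIs) and Hes1 at 2.78 (139 UMIs) and 1.48 (293 UMIs) per 10000. Their median depth was 5756 and 43896.5 UMIs. Whether such a barcode holds 1 cell or several was not tested.

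Cells with the red blood cell marker Alas2 held Notch1 at 0.0250 (1 UMI in 33 cells) and 0.0168 (11 UMIs in 587 cells), and Notch3 at the same values from the same numbers of UMIs.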
